A study of Mus musculus with 17 samples.

Results

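The hypothalamus of control mice was described here from 6 of the 17 arrays of the series, those titled as control hypothalamus. These arrays held RNA of 6 male wildtype C57Bl/6 mice, 9 weeks old, injected with vehicle only, with 1 Affymetrix array per hypothalamus. The remaining 11 arrays, from streptozotocin-treated and ob/ob mice, were not used. RNA (10 µg from each hypothalamus) was copied from an oligo(dT) primer and labelled as biotin cRNA, so each array reports on polyadenylated RNA of a whole dissected tissue. The labels speak of each hypothalamus but give no cage, day or dissection batch for these animals, so the spread between arrays holds animal, dissection and array variation together.

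The hypothalamus regulates feeding, body temperature, water balance, sleep and the pituitary. Its nuclei contain neurons that make short signalling peptides, cut from larger precursors and secreted either onto other neurons or into the blood. These neurons sit among GABA and glutamate neurons, myelinated fibre tracts, astrocytes, microglia, vessels and the lining of the third ventricle, and all of them contribute RNA to a tissue sample. In such bulk RNA, fewer cells of a type and less RNA per cell cannot be told apart.

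Every probe set other than the 64 Affymetrix control probe sets was ranked by the mean of its log2 MAS5 signal over the 6 arrays, which gave 22626 ranked probe sets. MAS5 is the array maker's summary of perfect-match against mismatch probes on a linear scale. Levels below are geometric mean signals, and errors are the SD of log2 signal (n = 6). A gene was called bright when its brightest probe set lay in the top 10% of probe sets (a geometric mean of at least 4456), dim in the bottom 40% (below 429) and intermediate otherwise. It was called variable when it was not dim and its SD was in the highest 5% of probe sets of similar signal. Of 12393 genes with a probe set of their own, 1321 (10.7%) were bright and 4455 (35.9%) dim, and 357 of the 7938 others (4.5%) were variable.

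Signal rank is not a rank of RNA amount, because probe sets bind with different strength. Among the 4956 genes with more than 1 probe set, the brightest exceeded the dimmest by a median of 3.01-fold. Genes are therefore placed as bright or dim on this array, and no gene's level is read as more RNA than another's. Detection calls were not used here. As a yardstick, 44 genes of tissues such as muscle, liver, lung and skin had a median signal of 163, and 37 of them were dim. The other 7 included Lor, a skin envelope protein, at 1517, Sftpb, a lung surfactant protein, at 1075, and Myh7, a slow-muscle myosin, at 1042, so an intermediate signal alone does not show that a gene is expressed.

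The 6 arrays were alike. Median signal ran from 638 to 697, and the correlation of log2 signal over all probe sets ran from 0.961 to 0.971 over the 15 pairs of arrays, none of them identical. The ratio of 3′ to 5′ control probe sets was 0.722 to 0.773 for Gapdh and 1.19 to 1.42 for Actb. The spread shrank as signal rose: the median SD was 0.47 for dim, 0.14 for intermediate and 0.089 for bright probe sets. The top 10% of probe sets (2263) carried 53.7% of the summed signal, and the bottom 40% (9050) carried 3.74%. With 6 arrays, the number of arrays limits the precision of each SD.

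The brightest gene was Eef1a1, a translation elongation factor, with a geometric mean of 37078 and a range over arrays from 34382 to 41510. Rps29, a ribosomal protein, stood at 36572, and Mbp, a structural protein of myelin, at 35782 (32259 to 41756). They were followed by Fth1, which stores iron, at 34649, Scd2, a fatty acid desaturase, at 34071, and Tuba1a, an alpha-tubulin, at 33162. Cpe, the carboxypeptidase that trims neuropeptide precursors, was the seventh at 30886. The 20 brightest genes also held Tpt1, Rpl38, Ndrg4, Actb, Norad, ND5, Sparc, Gnas, Rps28 and Rtn3. Apoe (29370.2), Cst3 (29260.2) and Sparcl1 (28834), 3 secreted proteins abundant in astrocytes, completed the group. Genes of translation, the cytoskeleton, myelin, astrocytes and peptide processing thus shared the top of the ranking.

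Control array 4 gave the highest signal of the 6 for 18 of these 20 genes, and for 547 of the 1321 bright genes. After quantile normalization, which gives all arrays one distribution, it was highest for 1 of the 20 and 280 of the 1321. The higher values of array 4 in bright gene groups below therefore changed with the scaling. Most counts of list genes highest in array 4 are also given after quantile normalization. Signals of single genes, including those highest in array 4, are as deposited.

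Lists of 594 genes with known roles were then placed on this scale, of which 496 had a probe set annotated to them alone and the others were not analysed here. Of the 496, 155 were bright (31.2%), 235 intermediate and 106 dim (21.4%). Among all genes the shares were 10.7% bright and 35.9% dim, and each list count below is to be read beside these. Of the 390 that were not dim, 36 were variable (9.23%), against 4.5% of all genes. The lists were chosen with earlier results of these data known, so these shares describe the lists and test nothing.

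**Figure D1:**
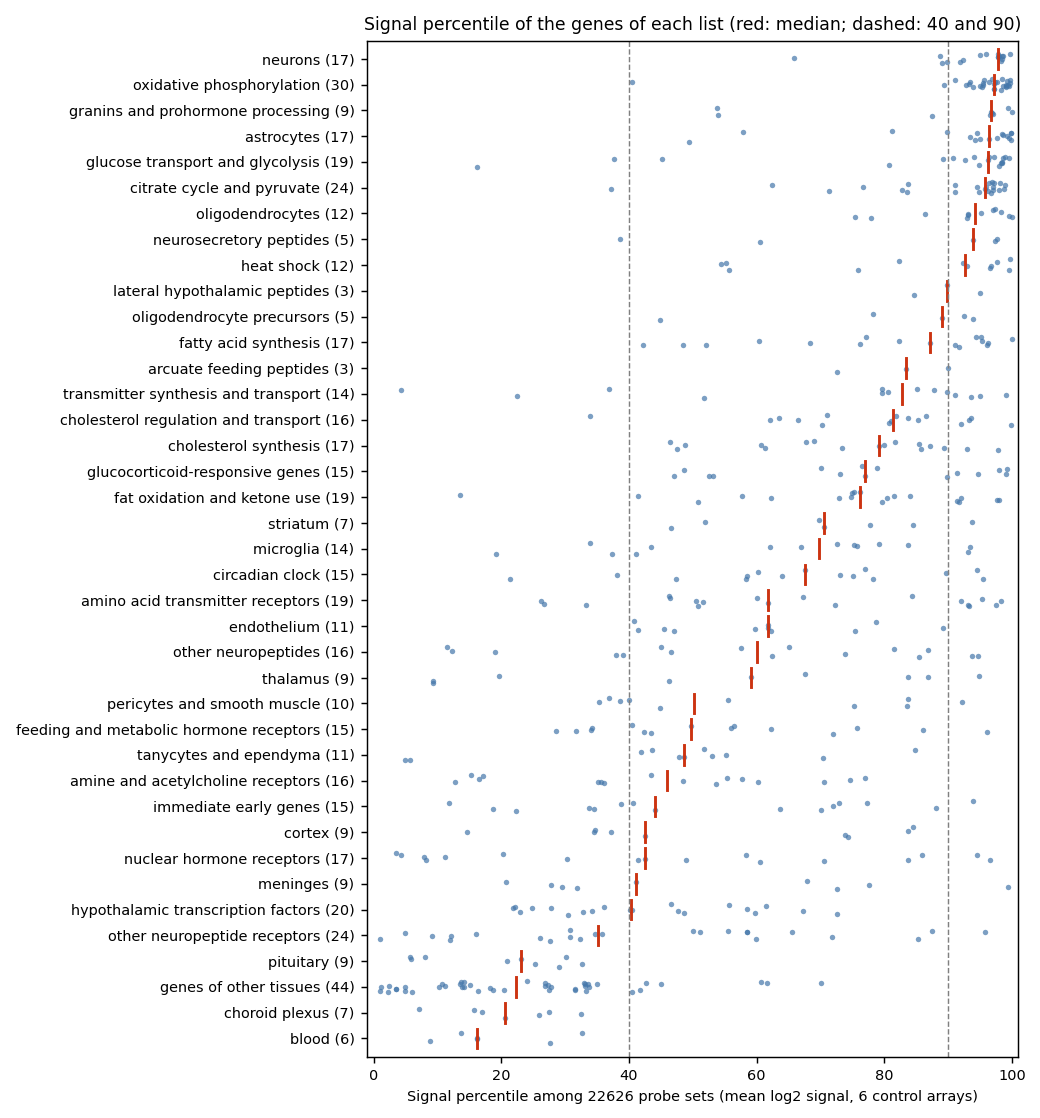
Each point is 1 gene, placed on the horizontal axis by its signal percentile among 22626 probe sets, and each line is a list with its number of measured genes. Red bars mark list medians, and dashed lines the bottom 40% and top 10%. Neuronal genes and subunits of oxidative phosphorylation lie at the right, and choroid plexus, pituitary and blood genes lie wholly left of the lower dashed line.

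Peptide precursors covered most of the range. Avp, the precursor of vasopressin, the hormone of water retention, gave 13929, 11510, 13527, 10506, 11230 and 13355 in control arrays 1 to 6, a geometric mean of 12273 (SD 0.17). Oxt, the oxytocin precursor, gave 11983, 12399, 12707, 10798, 9723 and 12581, a geometric mean of 11645 (SD 0.15). Both magnocellular hormones were lowest in arrays 4 and 5. Their levels over the 6 arrays gave a Pearson r of 0.68 (exact permutation p = 0.154, adjusted over 10 gene pairs 0.257) and a Spearman rho of 0.60 (exact permutation p = 0.242, adjusted 0.345). With 1 array left out in turn, r ran from 0.62 to 0.82. For each pair, r was also taken without the arrays farthest from the median of a member gene. That choice narrows the range of the gene by design, so a lower r does not show what a relation rests on. Without arrays 4 and 5, r of Oxt with Avp was -0.15. Of all genes that were not dim, 8.77% followed Oxt at least as closely as Avp did.

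Sst, the somatostatin precursor, was bright at 6721 and was among the steadiest peptides, between 6510 and 6955 (SD 0.04). Trh, the precursor of the thyrotropin-releasing hormone, was intermediate at 1031 (821 to 1412, SD 0.28). Ghrh, which drives growth hormone release, was dim at 400 (291 to 520, SD 0.37). Crh and Gnrh1 were not analysed here.

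The arcuate feeding peptides were intermediate in signal. Cartpt, the precursor of an appetite-suppressing peptide, was 4454 (3934 to 4780, SD 0.10) and ranked 2264, directly below the last bright probe set. Npy, a peptide that drives feeding, was 2866 (2572 to 3172, SD 0.11). Pomc, the precursor of melanocortins, gave 1797, 2118, 1815, 1634, 1488 and 1332 in arrays 1 to 6, a geometric mean of 1678 (SD 0.24), with its highest value in array 2 and its lowest in array 6. Cartpt was also highest in array 2 and lowest in array 6. Pearson r for the pair was 0.84 (exact permutation p = 0.0375, adjusted 0.125) and Spearman rho 0.71 (exact permutation p = 0.136, adjusted 0.292). With 1 array left out in turn, r ran from 0.68 to 0.96, and it was 0.27 without both arrays 2 and 6. Npy and Sst, by contrast, gave r = -0.02 (exact permutation p = 0.978, adjusted 0.978), with rho = -0.03 (exact permutation p = 1, adjusted 1), and r = 0.32 without arrays 2 and 6. Agrp was not analysed here.

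Hcrt, the precursor of the orexins that promote waking and feeding, was bright at 7620 and variable (SD 0.28). Its values in arrays 1 to 6 were 6282, 8408, 10501, 6512, 6893 and 7861, so array 3 stood above the others. Without array 3 the SD was 0.18 and the gene was no longer variable. Nts, the neurotensin precursor, was 4386 (3969 to 4821) and Gal, the galanin precursor, 3112 (2635 to 3403), both intermediate with SDs of 0.09 and 0.15. Pmch was not analysed here.

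Among 16 other measured peptides, 2 were bright, 9 intermediate and 5 dim, near the shares of all genes (10.7% bright and 35.9% dim). Penk, the enkephalin precursor, was 7283 and variable (SD 0.33), with 8433, 7939, 5355, 8645, 8691 and 5540 in arrays 1 to 6. Arrays 3 and 6 stood below the other 4, which lay close together. Tac1, the substance P precursor, was 6556 (5390 to 8494, SD 0.22), lowest in array 3 as well. Cbln1, a secreted synapse organiser, was steady at 3528 (3358 to 3801, SD 0.06). At the dim end lay Nmu (neuromedin U) at 65.0 and Ucn (urocortin) at 59.2, whose 6 values ran from 11.1 to 273.

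**Figure D2:**
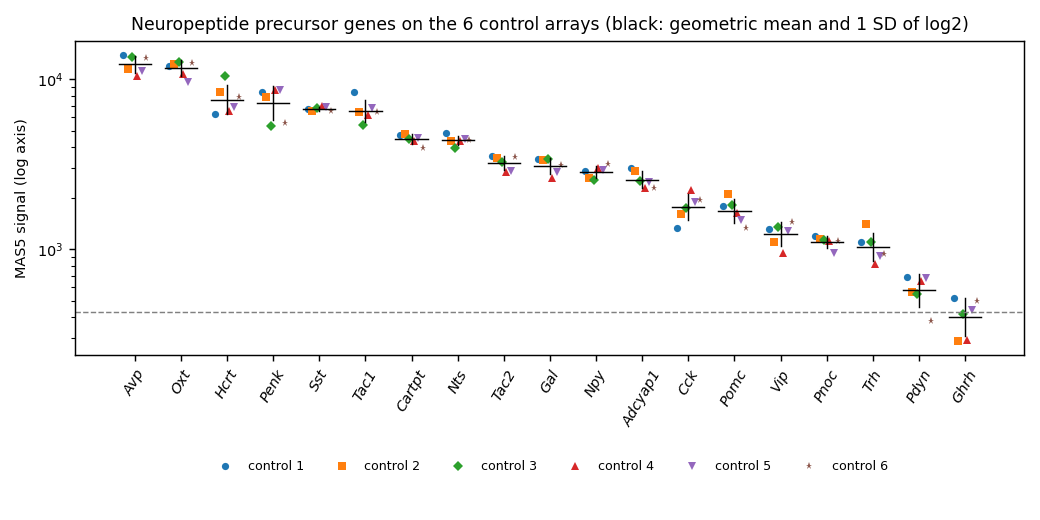
MAS5 signal (log axis) of 19 peptide precursor genes on each of the 6 control arrays, with black lines for the geometric mean and 1 SD of log2. Vasopressin and oxytocin stand highest, the Sst values nearly coincide, Penk shows 2 low arrays (3 and 6), and Ghrh straddles the dashed line at the bottom 40%.

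The machinery that stores and cuts these precursors was bright as a group, 6 of 9 measured genes, with none dim. Besides Cpe, Scg2 (secretogranin II) stood at 20956 (SD 0.08) and Chgb (chromogranin B), which like Scg2 packs dense-core granules, at 10634 (SD 0.09). Pcsk1, a convertase that makes the first cuts, and Pam, which amidates the finished peptide, were only intermediate at 780 (605 to 948) and 786 (644 to 1043).

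Receptors of feeding and metabolic hormones were near the shares of all genes. Of 15 feeding and metabolic hormone receptors, 1 was bright, 10 were intermediate and 4 dim, where 10.7% of all genes were bright and 35.9% dim. The bright one was Ntrk2, the receptor of the growth factor BDNF, at 8816 (SD 0.14). Adipor2 (3379) and Adipor1 (1934), the adiponectin receptors, were next. Lepr, the leptin receptor, at 323 (267 to 453), Insr, the insulin receptor, at 285 (231 to 392), and Glp1r, the receptor of the incretin GLP-1, at 240 (178 to 351), were all dim. All 3 lay in the range of the genes of other tissues, 95% of which were below 943, and cannot be told apart from that background. Cnr1, the cannabinoid receptor, had the largest SD of the not-dim members (0.45), from 285 to 698. Mc4r and Ghsr were not analysed here.

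Of 24 other neuropeptide receptors 1 was bright and 13 were dim, where 10.7% of all genes were bright and 35.9% dim. Ntsr2, a neurotensin receptor abundant in astrocytes, was 8405 (SD 0.07), followed by Sort1, a sorting receptor that also binds neurotensin, at 3694 and Oprl1, the nociceptin receptor, at 3217 (SD 0.06). Galr2, a galanin receptor, at 23.7 and Vipr1, a receptor for vasoactive intestinal peptide, at 9.09 gave the lowest signals. Among 17 nuclear receptors, Thra, a thyroid hormone receptor, stood at 9596 (SD 0.08), Nr1d2, a heme-binding clock repressor, at 7128 and Nr3c1, the glucocorticoid receptor, at 3339. Of the 17, 7 were dim, near the 35.9% of all genes. The lipid-sensing Pparg (21.3) and Ppard (18.0) were the dimmest of these.

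Receptors for amino acid transmitters included 6 bright genes of 19 measured. Gabbr1, a subunit of the GABA-B receptor, led at 14452 with an SD of 0.04. Gria2, the AMPA receptor subunit that limits calcium entry, was 11700, and Gabrb1, a GABA-A subunit, 7950. Gabrq and Grin2a were dim at 216 and 212, although Gabrq ran from 50.9 to 393. Of 16 receptors for amines and acetylcholine none was bright, with Hrh3, a histamine autoreceptor, highest at 2043 (1871 to 2278), then Htr2c, a serotonin receptor, at 1847 and Drd2, a dopamine receptor, at 1541.

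Of 14 measured genes of transmitter synthesis and transport 4 were bright, 3 of them genes of GABA or glutamate neurons and the other Ddc. Gad1, which makes GABA, was 18162 (16109 to 19654, SD 0.10), Slc17a6, the glutamate transporter of subcortical neurons, was 7605 (SD 0.08), and Slc32a1, the vesicular GABA transporter, was 6513 (SD 0.12). Gad1 and Slc32a1 gave r = 0.78 over the arrays (exact permutation p = 0.0903, adjusted 0.219), with rho = 0.37 (exact permutation p = 0.497, adjusted 0.552). With 1 array left out, r ran from 0.07 without array 6 to 0.93 without array 5, and it was -0.01 without both arrays 1 and 6. The serotonin transporter Slc6a4 was dim at 21.3, as was Slc6a5, the glycine transporter, at 167.

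The genes of dopamine synthesis and reuptake were the variable members of the transmitter group. Slc6a3, the dopamine transporter, gave 4011, 2075, 5792, 5027, 4303 and 6947 in arrays 1 to 6, a geometric mean of 4398 with an SD of 0.60. Th, tyrosine hydroxylase, the rate-limiting enzyme of dopamine synthesis, gave 2489, 1306, 2913, 2149, 2228 and 3571, a geometric mean of 2335 (SD 0.49). Ddc, the next enzyme, gave 4655, 3341, 5621, 4966, 4891 and 6346, a geometric mean of 4878 (SD 0.31). All 3 genes were lowest in array 2 and highest in array 6. Without array 2 the SDs were 0.32, 0.30 and 0.18, and Ddc was then no longer variable while Slc6a3 and Th were.

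A list of 17 genes of midbrain dopamine neurons was added after these values were seen, so it gives no independent support. Of its 15 measured genes 8 were not dim, and 7 of these 8 were highest in array 6 and 6 lowest in array 2. Of all 7938 genes that were not dim, 1340 were highest in array 6 and 1623 lowest in array 2. The 8 genes included Aldh1a1, an aldehyde dehydrogenase, with 5692, 4092, 7735, 7226, 6464 and 7143, and Chrna6, a nicotinic receptor subunit, with 870, 511, 1155, 892, 771 and 1270. The transcription factors Pitx3 (216), Lmx1b (220), En1 (204), En2 (231), Foxa1 (317) and Foxa2 (343) were dim. Nr4a2 was intermediate at 734 and highest in array 6. En1 and Foxa1 were lowest in array 2 (116 and 233) and highest in array 6 (308 and 446). Lmx1b and Foxa2 were also highest in array 6 (260.5 and 460), but lowest in array 1 (174) and array 4 (272.5). En2 was lowest in array 1 (112) and equally high in arrays 4 and 6 (284), and Pitx3 was highest in array 2 (323). The mean log2 signal of the 8 genes was 10.90, 10.33, 11.20, 10.96, 10.79 and 11.31. Dopamine neurons of the hypothalamus express some of these genes too, and the part of midbrain tissue in the result was not tested.

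Immediate early genes, which are induced within minutes by neuronal firing or stress, also differed between animals. Fos gave 1537, 2972, 2854, 1471, 1323 and 3212 in arrays 1 to 6, a geometric mean of 2082 (SD 0.59). Arrays 2, 3 and 6 lay between 2854 and 3212, and arrays 1, 4 and 5 between 1323 and 1537. Egr1, a zinc-finger factor, gave 3076, 5425, 3897, 3427, 2962 and 5265 (SD 0.38), and Nr4a1, an orphan nuclear receptor, 1544, 2485, 2136, 1471, 1311 and 1515 (SD 0.36). Egr1 was high in arrays 2 and 6, whereas Nr4a1 was high in arrays 2 and 3, and it was no longer variable without array 2. Of the 9 members that were not dim, 6 were lowest in array 5, 4 highest in array 2 and 4 highest in array 6. Of all 7938 such genes, 1304 were lowest in array 5, 1581 highest in array 2 and 1340 highest in array 6. Jund, a constitutive partner of Fos, was bright and steady at 6702 (SD 0.07). Fos and Egr1 gave r = 0.91 (exact permutation p = 0.0181, adjusted 0.0903), rho = 0.89 (exact permutation p = 0.0333, adjusted 0.292) and r = 0.83 without arrays 5 and 6. This relation includes the gap between the high and low Fos arrays, and the relation within the 3 arrays on each side was not tested. Of the genes that were not dim, 0.756% followed Fos as closely as Egr1 did.

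Th, Fos and Nr4a1 are textbook targets of the cyclic AMP response pathway, and their promoters are shown because these 3 genes were among those that varied between animals. The windows run from 250 bases before to 50 bases after the annotated start (RefSeq, GRCm38.p6). Capitals mark TGACG, the half-site of the cyclic AMP response element, on either strand (CGTCA in these letters), or the full element TGACGTCA. Fos lies at chr12:85473640-85473939 (+ strand), Nr4a1 at chr15:101266596-101266895 (+ strand) and Th at chr7:142899946-142900245 (- strand).
Fos: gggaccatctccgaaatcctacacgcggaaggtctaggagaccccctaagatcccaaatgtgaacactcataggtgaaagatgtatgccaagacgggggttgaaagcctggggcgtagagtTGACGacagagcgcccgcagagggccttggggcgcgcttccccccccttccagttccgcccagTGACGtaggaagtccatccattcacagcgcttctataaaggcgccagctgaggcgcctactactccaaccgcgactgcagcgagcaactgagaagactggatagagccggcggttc
Nr4a1: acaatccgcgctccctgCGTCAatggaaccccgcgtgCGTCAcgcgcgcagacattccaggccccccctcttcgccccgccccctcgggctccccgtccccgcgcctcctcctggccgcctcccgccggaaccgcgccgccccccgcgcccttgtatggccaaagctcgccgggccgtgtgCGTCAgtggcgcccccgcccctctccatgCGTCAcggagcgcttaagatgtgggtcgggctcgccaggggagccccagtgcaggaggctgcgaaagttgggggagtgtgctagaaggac
Th: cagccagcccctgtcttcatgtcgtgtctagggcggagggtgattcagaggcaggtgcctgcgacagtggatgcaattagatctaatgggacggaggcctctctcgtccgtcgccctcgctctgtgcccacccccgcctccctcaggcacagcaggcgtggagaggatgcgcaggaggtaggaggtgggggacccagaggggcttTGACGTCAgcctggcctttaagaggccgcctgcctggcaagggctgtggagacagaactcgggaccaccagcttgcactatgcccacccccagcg
Fos held 2 half-sites, starting at -129 and -66 from its start, and Nr4a1 held 4, at -233, -213, -69 and -40. Th held the full element at -45, in which the half-site is read on both strands, overlapping itself. Among 32851 promoter windows of this length, 20.8% held the half-site and 1.79% the full element. These matches describe letters in the windows and say nothing of binding in these animals.

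Genes known to respond to glucocorticoids, the adrenal stress hormones, held the gene with the largest SD of the 390 listed genes that were not dim. Sgk1, a kinase of ion transport, gave 3408, 7813, 3836, 2480, 2462 and 11179 in arrays 1 to 6, a geometric mean of 4371 with an SD of 0.90. It was high in arrays 2 and 6, as Egr1 was. Ddit4, an inhibitor of growth signalling, followed the same order of its highest arrays, with 2813 in array 2 and 3271 in array 6 against 1689 to 2213 in the others (SD 0.37). Of 15 genes in this list 5 were variable, the others being Plin4, Sult1a1 and Mt2. Plin4, which coats fat droplets, stood apart from Sgk1: it was highest in array 2 (958) and array 4 (836) and between 422 and 544 elsewhere, and was not variable without array 2. Mt2, a metallothionein, was bright at 13513 (SD 0.19), and its call was lost without array 1 or array 4. The SD of Sult1a1, a sulfotransferase, was 0.38, and 0.24 without array 4, and its call was lost without array 3 or array 4. Some members, named after their values were seen, were steady: Fkbp5, a co-chaperone of the receptor, stayed between 1844 and 2104 (SD 0.07), and Tsc22d3, a leucine-zipper protein, between 4714 and 5501 (SD 0.08). The mean log2 signal of the 15 genes was 11.63 in array 2 and 11.66 in array 6, against 11.26 to 11.38 in the others. As deposited, 4 of the 15 were highest in array 2, 5 in array 6 and 5 in array 4. After quantile normalization these counts were 4, 6 and 3. Of all 7938 genes that were not dim, 1581, 1340 and 1320 were highest in arrays 2, 6 and 4 as deposited. Members thus differed in spread.

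**Figure D3:**
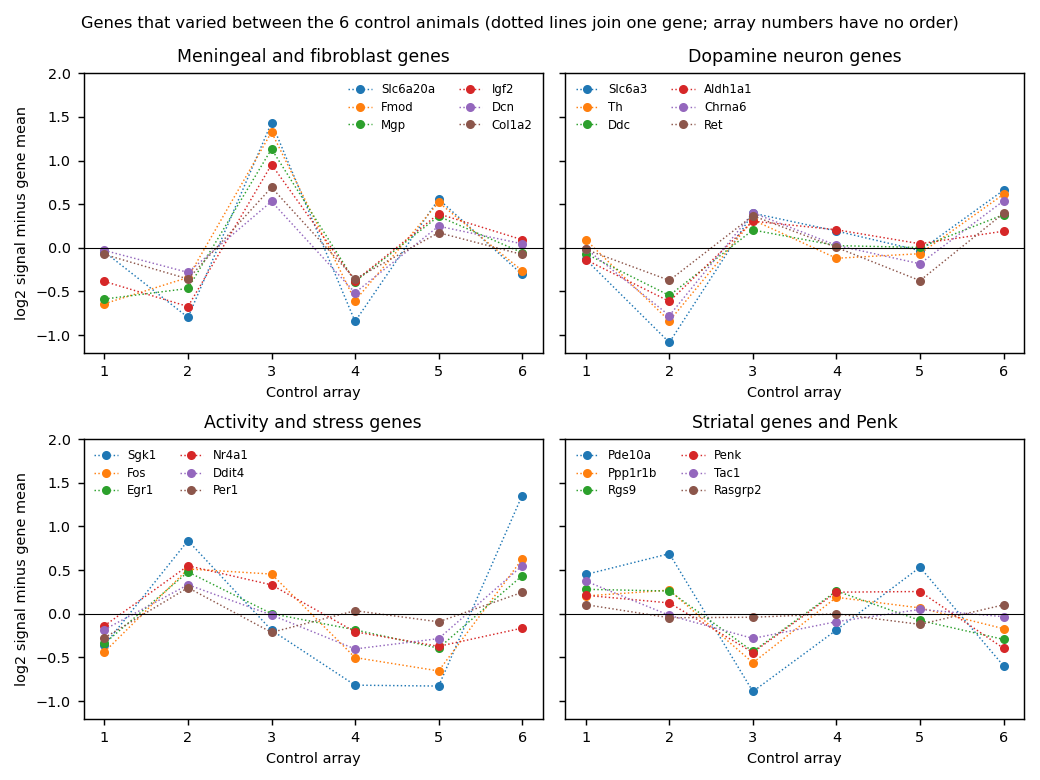
Log2 signal of each gene minus its mean over the 6 control arrays, for 4 groups that held variable genes. Dotted lines only join the points of 1 gene, and array numbers are the replicate numbers of the labels. Fibroblast genes peak in array 3, dopamine neuron genes dip in array 2, Sgk1 and Egr1 are high in arrays 2 and 6, and Pde10a and Ppp1r1b are low in array 3.

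Of 15 clock genes 13 were not dim and none of these was called variable. Their median SD was 0.18, against 0.13 for all genes that were not dim. Tef (8074, SD 0.07) and Dbp (4326, SD 0.07), related output factors, and Nr1d2 were the brightest. Cry1, a core repressor, had the largest SD (0.40), from 388 to 811. Per1 and Dbp gave r = -0.57 (exact permutation p = 0.240, adjusted 0.325) and rho = -0.66 (exact permutation p = 0.175, adjusted 0.292), with r = 0.17 without arrays 2 and 6.

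Of 20 hypothalamic transcription factors measured, none was bright, 11 were intermediate and 9 dim, where 10.7% of all genes were bright and 35.9% dim. Six3 (1676, SD 0.10), Isl1 (1342, SD 0.26) and Arnt2 (1069, SD 0.14), factors of hypothalamic development, led the list. Nr5a1, the marker of the ventromedial nucleus, was variable at a mean of 440 (SD 0.54). Its values were 572, 669 and 618 in arrays 1, 2 and 3 and 311, 331 and 300 in arrays 4, 5 and 6. This split was seen after the fact, and the share of all genes that split the same way was not counted. The gene sits at the edge of the dim range, and without array 1, 2 or 3 it was no longer called.

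Genes known as markers of neighbouring brain regions were examined next. Of 7 striatal genes 3 were variable and 5 were lowest in array 3, against 934 of all 7938 genes that were not dim. Pde10a, a phosphodiesterase of striatal neurons, gave 785, 926, 310, 505, 831 and 380 (SD 0.65), and Ppp1r1b, the dopamine-regulated phosphatase inhibitor DARPP-32, gave 2443, 2560, 1437, 2418, 2222 and 1884 (SD 0.32, and 0.17 without array 3, where it was no longer variable). Rgs9, a G-protein regulator, was likewise low in array 3 (2288) and array 6 (2519) and between 2928 and 3749 elsewhere. These are the 2 arrays in which Penk was low, but not all 7 genes had this profile. None of the 7 was lowest in array 6. Drd2 was 1749 in array 6 and lowest in array 2 (1368), and Tac1 was 6408 in array 6 and 6159 in array 4. Pde10a and Ppp1r1b gave r = 0.85 (exact permutation p = 0.0139, adjusted 0.0903) and rho = 0.83 (exact permutation p = 0.0583, adjusted 0.292). With 1 array left out in turn, r ran from 0.74 to 0.94, and it was 0.08 without both arrays 3 and 6. The part of striatal tissue in the Penk result was not tested.

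Of 6 thalamic genes that were not dim, 3 were highest in array 4, against 1320 of 7938 among all such genes, and the others were highest in arrays 2, 5 and 6. Prkcd, a kinase of thalamic relay neurons, was 2345 in array 4 and 996 to 1412 in the others (SD 0.42, and 0.19 without array 4, where it was no longer variable). Tcf7l2, a Wnt pathway factor of the thalamus (SD 0.34), and Ramp3, a receptor partner (SD 0.42), were higher in arrays 4 and 5 than in the other 4. Their calls were lost without array 2, 4 or 5. Rora, an orphan receptor of thalamus and cerebellum, was highest in array 4 at 3747 and lowest in array 1 at 2366 (SD 0.26), and lost its call without either. All 5 not-dim cortical genes were highest in array 4, before and after quantile normalization, among them Mef2c, a neuronal transcription factor, at 3854 against 2146 in array 3, without which it was no longer variable (SD 0.31 over all arrays). Egr3, an activity-dependent factor, ran from 330 to 746 (SD 0.52) and lost its call without array 4. Neurod6, a defining factor of cortical excitatory neurons, was dim at 86.2. Of the other thalamic genes, Calb2 (calretinin) was bright at 7559 (SD 0.10) and highest in array 6, and Cbln1 was lowest in array 4.

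Genes of the meninges, the covering of the brain, also differed between animals. Igf2, a growth factor made by the meninges and choroid plexus, gave 1613, 1322, 4078, 1620, 2758 and 2246 in arrays 1 to 6, a geometric mean of 2106 (SD 0.60). Dcn, a small proteoglycan of connective tissue, gave 1644, 1381, 2426, 1175, 1993 and 1733 (SD 0.37), and Col1a2, a fibrillar collagen, reached 2234 in array 3 against 1080 to 1560 elsewhere. Ptgds, a prostaglandin synthase of meninges and glia, was bright at 22289 and also highest in array 3 (27384 against 19652 to 24638). All 5 not-dim genes of the meninges list were highest in array 3, with array 5 second for each of these 4. Of all 7938 not-dim genes, 1209 were highest in array 3. The call of Col1a2 and that of Ptgds were lost without array 3, where the SD of Col1a2 was 0.22, whereas Igf2 and Dcn kept theirs.

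Several of the most variable genes on the whole array had the same profile. Slc6a20a, a proline transporter, gave 806, 479, 2249, 464, 1226 and 674 (SD 0.87), Fmod, the connective tissue proteoglycan fibromodulin, 411, 506, 1604, 421, 918 and 534 (SD 0.77), and Mgp, a matrix protein that blocks calcification, 1107, 1204, 3643, 1272, 2136 and 1600 (SD 0.65). Array 3 was highest and array 5 second for each. Without array 3 their SDs fell to 0.58, 0.47 and 0.38. Ccn3, a matricellular protein (SD 0.70), and Anxa1, an anti-inflammatory annexin (SD 0.64), peaked in array 3 at 1533 and 886. A list of 20 meningeal fibroblast genes was added after these values were seen, so it gives no independent support. It holds Slc6a20a, Fmod, Mgp, Ccn3, Anxa1, Igf2, Dcn and Col1a2, named above. Of its 19 measured genes 14 were not dim, and of these 14, 11 were variable and 13 were highest in array 3. Array 3 was highest for 1209 of all 7938 not-dim genes. The mean log2 signal of the 14 was 9.57, 9.47, 10.63, 9.32, 10.13 and 9.68 in arrays 1 to 6. The part of meningeal tissue in the spread of these genes was not tested.

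**Figure D4:**
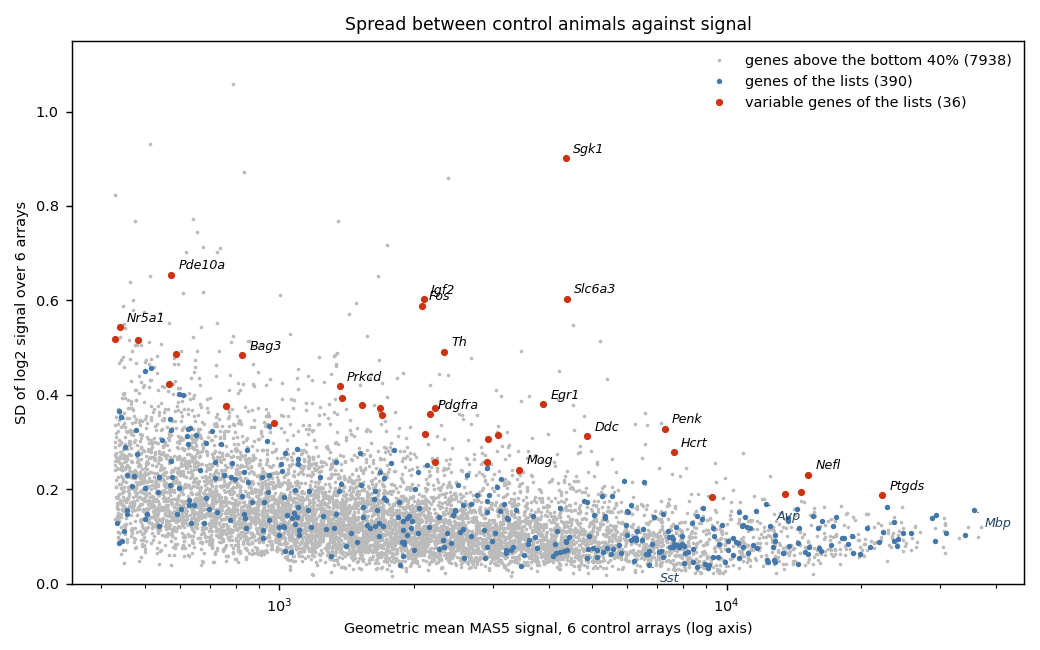
SD of log2 signal over the 6 control arrays against geometric mean signal (log axis) for the 7938 genes above the bottom 40%. Grey points are all genes, blue points the 390 genes of the lists, and red points the 36 of these that were variable. Sgk1 has the largest SD of the listed genes, and Sst lies near the floor of the cloud.

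Most markers of neurons, astrocytes and oligodendrocytes were bright. The median SD was 0.086 for neuronal, 0.12 for astrocyte and 0.16 for oligodendrocyte genes, against 0.13 for all genes that were not dim. Of 17 pan-neuronal genes 13 were bright and none dim, led by Snap25, a synaptic fusion protein, at 25894 (SD 0.11), Thy1, a surface glycoprotein, at 16378, and Eno2, the neuronal enolase, at 15278. Nefl, the neurofilament light chain, was the variable one, with 13075, 12730 and 14079 in arrays 1 to 3 and 18910, 16754 and 16884 in arrays 4 to 6 (SD 0.23). Of 17 astrocyte genes 13 were bright and none dim. Besides Apoe, Cst3 and Sparcl1 they included Gfap (7702, SD 0.12), the astrocyte filament, and Aqp4 (7214, SD 0.15), the water channel of their endfeet. These 2 genes gave r = 0.35 (exact permutation p = 0.501, adjusted 0.557) and rho = 0.37 (exact permutation p = 0.497, adjusted 0.552), with r = -0.42 without arrays 1 and 6. Slc1a2, the main glutamate transporter of astrocytes, read 644 on the 1 probe set annotated to it alone.

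Of 12 oligodendrocyte genes 9 were bright and none dim. Mobp, a second myelin protein, was 22865 (SD 0.16) and Mal, a myelin lipid-raft protein, 14706 and variable (SD 0.19), from 12115 in array 1 to 17386 in array 4. Mog, on the outer myelin surface, ran the same way, from 2823 in array 1 to 4337 in array 4 (SD 0.24). Mal lost its call without array 1, and Mog without array 1 or 4. Array 4 was highest for 8 of the 12 genes as deposited and for 5 of 12 after quantile normalization, while array 1 was lowest for 8 of 12 in both. Of all 7938 not-dim genes as deposited, 1320 were highest in array 4 and 1247 lowest in array 1. Mbp and Mobp gave r = 0.58 (exact permutation p = 0.260, adjusted 0.325) and rho = 0.66 (exact permutation p = 0.175, adjusted 0.292), with r = 0.82 without arrays 2 and 4. With 1 array left out in turn, r ran from 0.02 without array 4 to 0.91 without array 2. Among precursor genes, Cspg5 and Ptprz1, proteoglycan and phosphatase of immature glia, were bright at 6691 and 5562, and Pdgfra, the defining growth factor receptor, was 2177 and variable (SD 0.36), with 1397 in array 2 and 1971 to 2724 in the others. Without array 2 its SD was 0.19 and the call was lost.

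Of 14 microglial genes, 2 were bright, 9 intermediate and 3 dim, where 10.7% of all genes were bright and 35.9% dim. Csf1r, the receptor they need to survive, was 6286 (SD 0.09), Ctss, a lysosomal protease, 5990 (SD 0.10), and C1qa, of complement, 2938 (SD 0.19). Trem2, a lipid receptor, was dim at 131 (83.7 to 202). The complement genes C1qa and C1qb gave r = 0.71 (exact permutation p = 0.110, adjusted 0.219) and rho = 0.71 (exact permutation p = 0.136, adjusted 0.292). With 1 array left out in turn, r ran from 0.48 to 0.86, and it was 0.04 without both arrays 2 and 6. All 11 endothelial genes were intermediate, from Slc2a1, which carries glucose across the vessel wall, at 4189 (SD 0.11) to Pecam1, an adhesion molecule, at 445 (SD 0.09). Cldn5, a tight-junction protein, was the variable one, between 1762 and 2700 (SD 0.26), but lost its call without array 4, 5 or 6. Rgs5, of pericytes, was bright at 5413 (SD 0.08). Kcnj8, a pericyte potassium channel, at the edge of the dim range, had an SD of 0.52, or 0.26 without array 5 (223 there, 406 to 624 elsewhere), and its call was lost when any 1 of arrays 1 to 5 was left out.

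Tanycytes and ependyma, which line the third ventricle, had no bright gene among 11. Vim, a filament protein, was 3136 (2511 to 4018). Crym, which binds thyroid hormone, was variable at 1529 (SD 0.38), with 1008 in array 3 and 1952 in array 5, and was no longer called without array 3. Dio2, which activates thyroid hormone, was 828 (719 to 1049). Rax, a defining tanycyte factor, was dim at 23.4 (11.9 to 56.1).

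All 7 choroid plexus genes, all 9 pituitary genes and all 6 blood genes were dim, against 35.9% of all genes. Ttr, the transthyretin that fills the choroid plexus, was 33.0 on the probe set used, and 2 further Ttr probe sets of a type open to cross-hybridization read 280 to 607 and 114 to 389. The pituitary hormone genes Prl (26.7) and Fshb (27.1) were near the bottom of the ranking. The blood list lacked the beta-globin genes, which were not analysed here, so it rests on genes such as Alas2, the red-cell heme enzyme, at 298.

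Most genes of energy metabolism were bright, where 10.7% of all genes were. Of 30 subunits and carriers of oxidative phosphorylation 28 were bright, with Atp5b, a catalytic subunit of ATP synthase, at 24219 (SD 0.09), Cox7a2 at 24099.7 (SD 0.08) and Cox6c at 22346 (SD 0.11), both of cytochrome oxidase. Cox7c, of the same complex, read only 438 (SD 0.09). Array 4 was highest for 20 of the 30 genes as deposited and for 6 of the 30 after quantile normalization, when array 6 was highest for 11. Ndufa4 was the only variable member (9257, SD 0.18), from 7560 in array 2 to 10590 in array 4, and its call was lost without array 2.

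Of 19 genes of glucose transport and glycolysis 14 were bright, led by Aldoc, the aldolase of astrocytes, at 23676 (SD 0.13), Pgk1 at 17335 and Aldoa at 16254. Slc2a4, the insulin-regulated glucose transporter, was dim at 385 (227 to 578), as was Slc16a7, a lactate transporter, at 101. Array 4 was highest for 12 of the 17 not-dim genes, and for 8 after quantile normalization. The citrate cycle list had 17 bright genes of 24, with Mdh1 (17559), Mdh2 (17084) and Sdha (13776) in front. Pdk4, a fasting-induced brake on pyruvate oxidation, was dim at 376 (238 to 518).

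Lipid genes were spread over the range. Of 17 genes of cholesterol synthesis 2 were bright, near the 10.7% of all genes, and none dim, where 35.9% of all genes were. Hmgcs1, which makes the first committed intermediate, was 12838 (SD 0.10) and Msmo1, a sterol oxidase, 5957 (SD 0.12), while Mvk and Mvd, the kinase and decarboxylase of the mevalonate pathway, were 572 and 599. Cholesterol transport had 4 bright of 16, Apoe, Npc2 (6478), Lrp1 (6116) and Cyp46a1, the enzyme that clears brain cholesterol. Of 17 genes of fatty acid synthesis 8 were bright, Scd2 first, then Fads1 (9128, SD 0.04) and Scd1 (8864, SD 0.16). Mlxipl, the glucose-sensing factor ChREBP, was 474 (369 to 591). Of 19 genes of fat oxidation and ketone use 5 were bright, with Oxct1, which lets neurons burn ketone bodies, at 13403 (SD 0.06), Fabp5 at 12292 and Acat1 at 5303, and Fgf21, a fasting hormone of the liver, dim at 75.1.

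Chaperones completed the metabolic lists. Of 12 heat shock genes 7 were bright and none dim, with Hsp90aa1 at 24828, Hspa8 at 23735 and Dnaja1 at 12676. Bag3, a co-chaperone of stressed cells, was variable, with 830, 1238, 966, 836, 448 and 855 in arrays 1 to 6 (SD 0.48). Without array 5 its SD was 0.24 and it was no longer variable. Hspa1a, the inducible chaperone, was 797 (612 to 968, SD 0.22).

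Over all lists, 12 of the 36 variable genes kept that class whichever array was left out, namely Sgk1, Pde10a, Rgs9, Ddit4, Penk, Dcn, Fos, Nefl, Th, Egr1, Igf2 and Slc6a3. The other 24 lost it without at least 1 array. Of the 10 gene pairs examined, 3 had an unadjusted exact permutation p under 0.05 (Pomc with Cartpt, Ppp1r1b with Pde10a, and Fos with Egr1), and 0 passed after Benjamini-Hochberg adjustment. The smallest p that 6 arrays allow in this test is 0.00278.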

How the data were processed

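Expression was measured in hypothalamic RNA of 17 mice, and the 6 arrays titled as control were used. The deposited values are intensities: the authors gave 1 linear MAS5 signal per probe set and array, per the submitters' processing notes. The MAS5 version, scaling target and detection calls are not given in the sources used here. The 2% trimmed mean, about 1500 for each of the 6 columns, points to prior scaling to a shared mean.

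Of 22690 probe sets, 64 controls were left out. Of the other 22626, 20380 carried 1 gene symbol in the platform annotation, 691 several and 1555 none, and 20351 matched a RefSeq gene. The brightest probe set stood for each gene, and names ending in _x_at, which are open to cross-hybridization, were used only where there was no other. No build places the probe sets, so no probe coordinates are given.

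Signals were taken as log2 with no pseudocount or further normalization. For the variable class, probe sets were split into 20 bins of 5% by signal and the highest 5% by SD in each bin were taken. Tested on simulated data with 22626 probe sets, this recovered 88.5% of 200 probe sets given a 3-fold SD. There, all other probe sets of a bin shared its median SD. Real SDs differed more, with a median of 0.14 and a 95th percentile of 0.35 among intermediate probe sets. The 88.5% therefore does not give the recovery on these arrays. Gene pairs were tested over arrays by exact permutation of Pearson's r and Spearman's rho (720 pairings, two-sided), adjusted by Benjamini-Hochberg. Genes named by rule were the 20 brightest, the 20 most variable, the 3 brightest, 2 dimmest and the one of largest SD of each list, 3 peptide lists in full and the genes of the pairs. Th, Ddc, Nr4a1, Ddit4, Sult1a1, Col1a2, Mog, Prkcd, Tcf7l2, Tsc22d3, Fkbp5, Lepr, Cyp46a1, Aldh1a1, Chrna6, Pitx3, Lmx1b, En1, En2, Foxa1, Foxa2 and Nr4a2 were named after their values were seen, as were the 2 added lists. The members, lists and pairs were chosen with earlier results of these data known. Python 3.11.15, numpy 2.4.6, pandas 2.3.3, scipy 1.17.1 and matplotlib 3.10.9 were used.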

Additional observations from a re-analysis of the deposited data

Results flagged for a closer look

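In 191 named genes and 36 list means, the gap between the highest or lowest of the 6 arrays and its nearest neighbour was compared with the whole range by Dixon's rule (critical value 0.625). It picked out 12 genes (6.28%) and 2 list means. Chance gives about 1 in 20 for genes chosen without regard to their spread. The 191 genes include those named for a large SD over the same arrays, so the 2 rates cannot be compared. After quantile normalization 7 of these 14 no longer passed: Tpt1, Norad, Thy1, Hsp90aa1, Cysrt1 and both list means.

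Array 4 stood above the others for Tpt1, a growth-related protein, at 36646 (29199 to 31451 in the others), for the non-coding RNA Norad at 35633 (28949 to 30465), for Thy1 at 19596 (15291 to 16384), for Hsp90aa1 at 28771 (23538 to 24917), and for the mean log2 signal of glucose transport and glycolysis at 13.08 (12.93 to 12.97). After quantile normalization this mean was 13.02 in array 4 and 12.94 to 12.99 in the others, and Norad was no longer highest in array 4. Array 4 stood below the others for Hs1bp3 at 242 (648 to 1001) and for Gabre, a GABA-A receptor subunit, at 355 (556 to 685).

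Array 3 stood low for Sema6b, a semaphorin, at 139 (469 to 667), whose SD of 0.82 became 0.22 without it, and for Zbtb16, a glucocorticoid-responsive factor, at 418 (620 to 730). Array 5 stood low for Cysrt1 at 193 (666 to 1380), which had the largest SD of all genes above the bottom 40% (1.06, and 0.40 without array 5).

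Array 6 stood high for Fdft1, squalene synthase, at 4642 (4065 to 4246), and low for Gpr12, an orphan receptor, at 213 (486 to 706, with an SD of 0.65, or 0.22 without array 6) and for Myh7 at 832 (1050 to 1145). Array 2 stood high for the mean log2 signal of nuclear hormone receptors at 10.75 (10.65 to 10.69), and at 10.73 (10.65 to 10.68) after quantile normalization.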

How the results depend on the processing

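The 155 bright genes of the lists became 101 when bright meant the top 5%. The 106 dim genes became 65 with the bottom 30% and 184 when dim meant below the 95th percentile of the genes of other tissues. Leaving out each array in turn gave 19 to 20 of the 20 brightest genes shared, 156 to 157 bright genes, 106 to 109 dim genes, 31 to 41 variable genes and 0 to 0 correlated pairs. Quantile normalization gave 156, 106 and 37, with 34 of the 36 variable genes shared, and the other planned settings kept these counts within 1.5 times. The level of none of 246 named genes moved by over 1 SD except under the mean over a gene's probe sets, where 94 did. With 1 array left out in turn, r of Sst with Npy (-0.02 over all arrays) ran from -0.38 to 0.55, and turned positive without array 3 (0.18) or 6, and r of Gfap with Aqp4 (0.35) ran from -0.25 to 0.93. The cause was not tested. No paired analysis was possible because the 6 arrays form 1 group and no test between groups was run. The limits are the number of arrays, single probe sets per gene and the absence of detection calls from the values used. Low signals overlap those of genes of other tissues.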

Other observations

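Outside the lists, Sf3b3, a subunit of the splicing factor SF3B, gave 4240, 3675 and 4256 in control arrays 1, 2 and 3, and 1467, 1682 and 1129 in arrays 4, 5 and 6, with an SD of 0.86. Nr5a1 separated the same arrays the same way (572 to 669 against 300 to 331), and Nefl the opposite way (12730 to 14079 against 16754 to 18910). The first principal component of the not-dim probe sets held 30.6% of the variance and was above 0 for arrays 1 to 3 and below 0 for arrays 4 to 6. These genes were noticed among many, and the share of all genes split this way was not counted. The split follows the replicate numbers of the labels, 1 to 3 against 4 to 6. No batch or day is given for these numbers, and no test was made of the split.

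Aif1l, a calcium-binding actin protein, was highest in array 2 at 3197 and lowest in array 5 at 744 (SD 0.77). Sema6c, a semaphorin, was highest in array 2 at 3726 and lowest in array 5 at 861. Upk1a, a membrane protein of bladder epithelium, ran from 190 in array 1 to 978 in array 3 (SD 0.93).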
